A study of Mus musculus with 16 samples.

Results

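The Egr and Nr4a genes encode 2 families of immediate early transcription factors, and Egr1, Egr2, Egr3, Nr4a1, Nr4a2 and Nr4a3 are described here in mouse splenic B cells. They were chosen by gene name, and 7 of the 55681 non-control probes on the array carry these 6 names among 34821 gene names in all. Egr1, Egr2, Egr3, Nr4a1 and Nr4a3 had 1 probe each, and Nr4a2 had 2 probes. Of these probes, 6 passed the filter on dim probes and were tested, while the probe of Nr4a3 was not well above background on any of the 16 arrays.

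Spleen cells selected for B220 were taken from mice lacking the 3'RR and from wild-type mice, and their total RNA was hybridised to single-colour arrays, 4 per genotype on each of 2 slides. The 3'RR is the regulatory region at the 3' end of the immunoglobulin heavy chain locus, a cluster of enhancers active in B lineage cells. Per the labels, the deficient mice lacked it on the heavy chain allele of 129 origin and had a BALBC background and strain entry, while the wild-type mice had the strain entry 129. Genotype and strain therefore cannot be told apart in any comparison below. All samples came from cells selected with anti-B220 beads, with 0.2 µg of RNA and a RIN number of 9, and no stimulation is named in the labels. The deficient arrays carried the numbers 9 to 12 (slide 1) and 1 to 4 (slide 2). The wild-type arrays carried 2, 5, 6 and 8 (slide 1) and 1, 2, 3 and 5 (slide 2). Each genotype had 8 arrays although the design text names only 4 mice for it, and no label ties an array to an animal. Some of the spread that the p-values rest on may therefore be technical.

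Immediate early genes are transcribed within minutes of a stimulus, without new protein synthesis. In B cells, antigen receptor signals reach the Egr genes through the Ras and ERK kinases and serum response factor, and reach the Nr4a genes through calcium, calcineurin, MEF2 and CREB. The Egr proteins bind GC-rich DNA through zinc fingers, and the Nr4a proteins are orphan nuclear receptors. Nr4a1 is used in mice as a reporter of antigen receptor signalling, and Egr2, Egr3 and the Nr4a proteins are known to restrain lymphocyte responses. The same genes also respond to handling and dissociation of tissue.

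The RefSeq promoter table (GRCm38.p6) held 8 start sites for 4 of these genes, of which 5 belong to Egr2. The 250 bases before each start were searched on both strands for the letters through which these input pathways are known to bind. TGACG, the core of the CREB site (CGTCA on the other strand), occurred 4 times before the starts of Nr4a1, Nr4a2 and Nr4a3, and 2 times in 3 of the 5 Egr2 windows, which overlap. It occurred at least once in 17.8% of all 32851 windows of this length. The CArG box, the core of the serum response element, occurred in 4 of the 5 Egr2 windows, which share 2 boxes, and in 1.47% of all windows. The letters GCGGGGGCG (CGCCCCCGC on the other strand), to which Egr proteins bind, occurred once before Nr4a1, 60 bases from its start, and in 2.57% of all windows. None of these windows held TGACGTCA, GCGTGGGCG (CGCCCACGC on the other strand), the Nr4a site AAAGGTCA (TGACCTTT on the other strand) or a MEF2 site, which 1.55%, 0.536%, 1.34% and 0.508% of all windows held. The letters TGACG lie within TGACGTCA, so those searches overlap. A match is a description of the letters and does not show that a factor binds there. The 2 promoters below belong to Nr4a1 and Nr4a2, the genes whose genotype difference was called different between the slides. For Nr4a2 that call came from the brighter of its 2 probes alone. The stretches of at most 30 bases show the Egr2 boxes and 2 neighbouring TGACG matches of Nr4a3, and capitals mark the matched letters.

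Nr4a1 (chr15:101266596-101266845, plus strand): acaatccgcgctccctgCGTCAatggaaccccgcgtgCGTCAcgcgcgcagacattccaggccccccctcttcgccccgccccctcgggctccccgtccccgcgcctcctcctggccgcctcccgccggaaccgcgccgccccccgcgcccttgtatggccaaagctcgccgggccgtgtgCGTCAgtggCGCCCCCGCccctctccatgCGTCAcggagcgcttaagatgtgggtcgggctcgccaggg
Nr4a2 (chr2:57124004-57124253, minus strand): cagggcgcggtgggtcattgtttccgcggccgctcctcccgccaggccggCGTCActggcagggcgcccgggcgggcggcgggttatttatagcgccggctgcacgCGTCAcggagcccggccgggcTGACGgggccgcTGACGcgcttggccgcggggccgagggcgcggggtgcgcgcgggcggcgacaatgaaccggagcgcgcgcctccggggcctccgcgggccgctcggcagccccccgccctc
Egr2 (chr10:67537486-67537515, plus strand): gatcttctCCTTTTTTGGaaagtctcggag
Egr2 (chr10:67537789-67537818, plus strand): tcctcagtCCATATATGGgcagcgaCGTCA
Nr4a3 (chr4:48045084-48045113, plus strand): tcccatgtCGTCAcatTGACGtctcgcatt

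The array probes are 60 bases long, and mm9 is the build of their coordinates. Those of Egr3 and Nr4a3, whose signals were near or below background, and the brighter of the Nr4a2 probes, whose genotype values ran opposite ways on the slides, are shown as the files give them. The Nr4a3 probe spans 3187 bases of the genome, so it crosses an intron.

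Egr3 (chr14:70479222-70479281, plus strand): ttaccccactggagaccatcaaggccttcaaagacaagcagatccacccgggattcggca
Nr4a2 (chr2:56960699-56960758, minus strand): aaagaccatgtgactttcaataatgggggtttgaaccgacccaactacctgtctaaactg
Nr4a3 (chr4:48080690-48083876, plus strand): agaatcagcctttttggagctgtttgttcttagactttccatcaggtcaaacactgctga

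Values are log2 processed signals minus the array's own 75th percentile over non-control spots, so a value of 0 is the signal at that percentile. They compare arrays for 1 probe, and the level of a probe was not set against that of another. Differences are deficient minus wild type with the standard error (SE) of 1 limma model of 4 groups, and adjusted p-values are limma's with Benjamini-Hochberg adjustment over 32881 probes and a threshold of 0.05. The 75th percentile of the signal was 576 to 851 on slide 1 arrays and 596 to 990 on slide 2 arrays. Arrays correlated at 0.980 to 0.996 within groups, at 0.968 to 0.984 between genotypes on 1 slide and at 0.886 to 0.913 between slides. All 10 B cell markers were well above background in every group. Markers of B cells and of several other cell types differed between the slides, and their values are given beside the slide comparison.

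Over both slides, Egr1, Egr2, Egr3 and Nr4a1 were lower in 3'RR-deficient cells, and Nr4a2 did not pass the test. Of the 5 genes tested, 4 were called lower and none higher, beside 9.2% of all probes called lower and 7.57% called higher. The median difference of the 5 genes was -0.72, against -0.03 over all 22736 genes. With the arrays scaled to their median instead, 2744 probes were called higher and 1845 lower, against 2490 and 3026 as reported. The direction of Egr1, Egr2, Egr3 and Nr4a1 over both slides was the same under that scaling and under quantile normalization. The signal of Egr3 was near background, and its call was lost in some other settings, as given below.

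**Figure D1:**
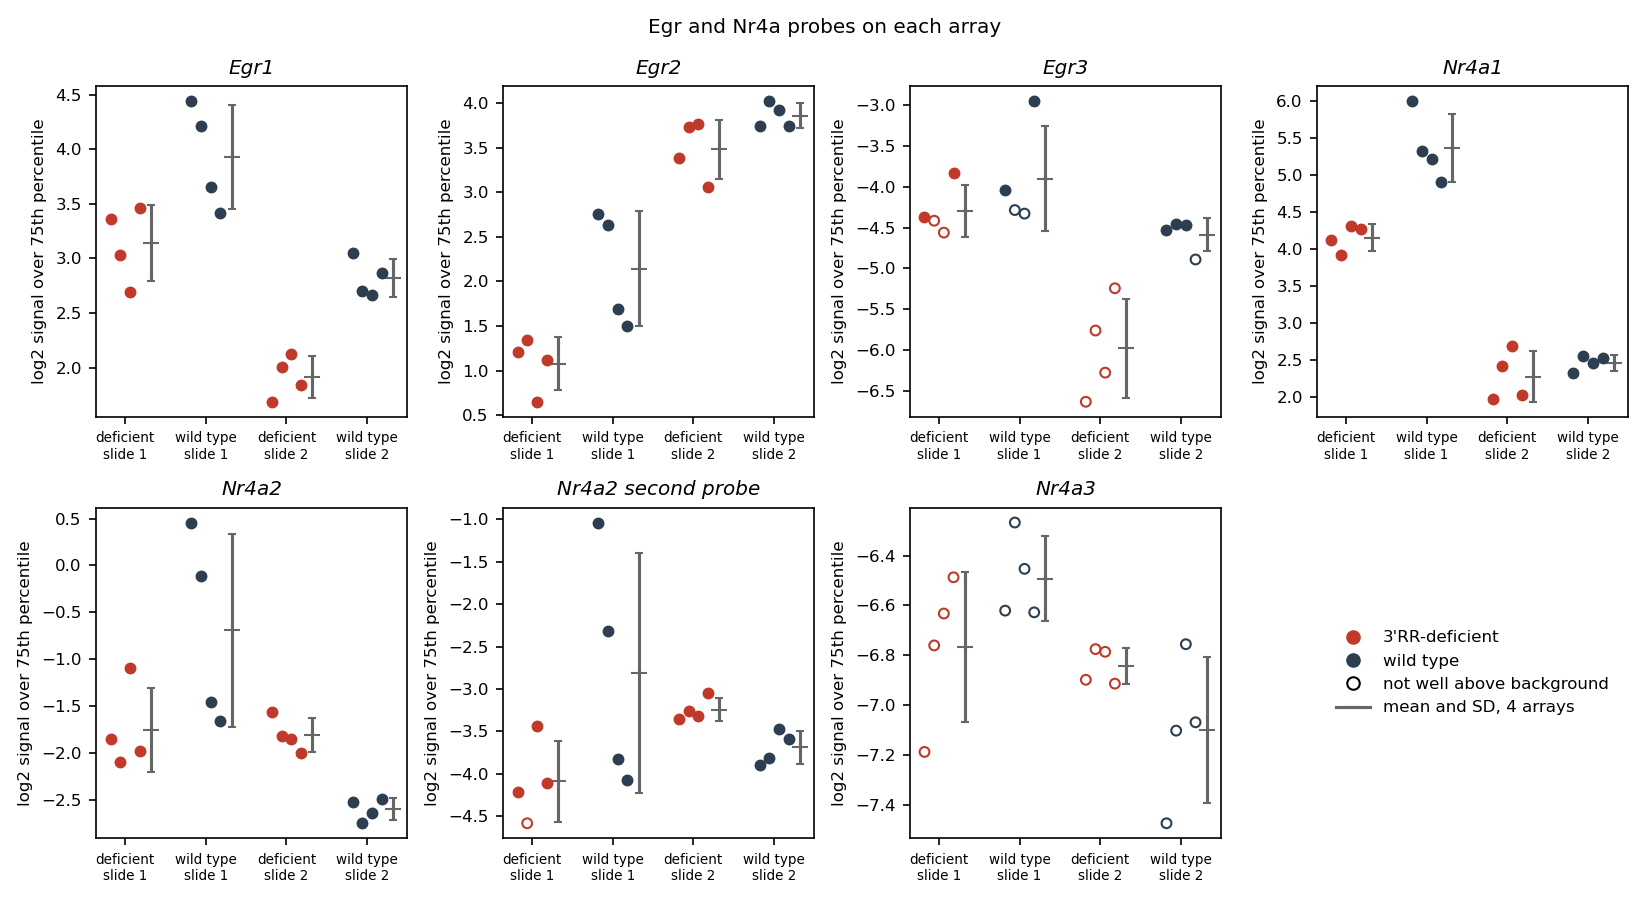
Log2 signal over the array's 75th percentile (y axis) of each Egr and Nr4a probe on the 4 arrays of each group (x axis), with mean and SD in grey and open circles for arrays not well above background. Egr1 separates the genotypes on slide 2, Nr4a1 separates them on slide 1, and all 16 Nr4a3 circles are open.

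Egr1 is a zinc finger factor that ERK and serum response factor switch on within minutes, and its probe lies on chromosome 18 (mm9 35024395 to 35024454). On slide 1 it read 3.37, 3.04, 2.70 and 3.47 in deficient arrays 9, 10, 11 and 12, against 4.44, 4.21, 3.66 and 3.42 in wild-type arrays 2, 5, 6 and 8. On slide 2 it read 1.69, 2.00, 2.13 and 1.84 in deficient arrays 1 to 4, against 3.05, 2.70, 2.67 and 2.87 in wild-type arrays 1, 2, 3 and 5. The groups overlapped on slide 1, where wild-type array 8 was below deficient array 12, and did not overlap on slide 2. The group means were 3.14 ± 0.35 in deficient and 3.93 ± 0.48 in wild-type cells on slide 1 (SD, n = 4 each). On slide 2 they were 1.91 ± 0.19 in deficient and 2.82 ± 0.18 in wild-type cells (SD, n = 4 each). Egr1 fell by 0.79 on slide 1 (SE 0.22, adjusted p 0.0192 in limma) and by 0.91 on slide 2 (SE 0.22, adjusted p 0.0207), which is 1.73-fold and 1.88-fold lower. Over both slides it fell by 0.85 (SE 0.15, adjusted p 0.00209), and the slides' differences did not differ beyond their error (0.12, 95% interval -0.54 to 0.78, adjusted p 0.83). The within-slide calls were lost when single arrays were left out, with adjusted p up to 0.0514 on slide 1 (without deficient array 11 or wild-type array 2) and up to 0.0713 on slide 2 (without deficient array 1 or 4 or wild-type array 1 or 5), while the call over both slides held without each array in turn.

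Egr2, a zinc finger factor tied to anergy and to restraint of lymphocyte proliferation, has its probe on chromosome 10 (mm9 67004798 to 67004857). On slide 1 it read 1.21, 1.34, 0.65 and 1.12 in deficient arrays 9, 10, 11 and 12, against 2.75, 2.64, 1.69 and 1.5 in wild-type arrays 2, 5, 6 and 8. On slide 2 it read 3.39, 3.73, 3.76 and 3.06 in deficient arrays 1 to 4, against 3.74, 4.03, 3.92 and 3.74 in wild-type arrays 1, 2, 3 and 5. The genotypes did not overlap on slide 1, where wild-type arrays 2 and 5 stood about 1 unit above arrays 6 and 8, and they overlapped on slide 2. The means were 1.08 ± 0.30 in deficient and 2.15 ± 0.64 in wild-type cells on slide 1 (SD, n = 4 each). On slide 2 they were 3.49 ± 0.33 in deficient and 3.86 ± 0.14 in wild-type cells (SD, n = 4 each). Egr2 fell by 1.07 on slide 1 (SE 0.27, adjusted p 0.0116 in limma), and its difference of -0.37 on slide 2 did not pass the test (95% interval -0.94 to 0.20, adjusted p 0.476). Over both slides it fell by 0.72 (SE 0.19, adjusted p 0.0184). The difference between the slides, -0.70 (SE 0.38, adjusted p 0.234), did not pass the test. Fitted on slide 1 alone, the slide 1 calls of both Egr1 (adjusted p 0.102) and Egr2 (adjusted p 0.0757) were lost.

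Egr3 shares its DNA-binding zinc fingers and its role in lymphocyte restraint with Egr2, and its signal was near background in every group. On slide 1 its probe read -4.38, -4.42, -4.56 and -3.83 in deficient arrays 9, 10, 11 and 12, against -4.04, -4.29, -4.33 and -2.96 in wild-type arrays 2, 5, 6 and 8. On slide 2 it read -6.63, -5.76, -6.27 and -5.24 in deficient arrays 1 to 4, against -4.53, -4.46, -4.47 and -4.89 in wild-type arrays 1, 2, 3 and 5. On slide 1 its signal was well above background in 2 deficient and 2 wild-type arrays, and on slide 2 in 0 deficient and 3 wild-type arrays, each of 4. The slide 1 difference of -0.39 did not pass the test (95% interval -1.08 to 0.29, adjusted p 0.397 in limma). On slide 2 the fitted difference was -1.39 (adjusted p 0.0166), but the deficient arrays have only a bound there, 1.28-fold lower in deficient cells. It is not a firm minimum, because wild-type array 5 of slide 2 was not well above background either. The call was lost without deficient array 1 (adjusted p 0.0531) or 3 (adjusted p 0.0514). The slide 2 difference was -0.31 with dim arrays at their floor (adjusted p 0.565), -0.17 with normexp background correction (adjusted p 0.452) and -0.16 in the authors' deposited value table (adjusted p 0.734), each smaller than that bound. That bound sets the wild-type mean over all 4 arrays against, on each deficient array, whichever was higher, the signal of Egr3 or that of the dimmest probe still well above background. The fall of 0.89 over both slides (adjusted p 0.0158) rests on those dim signals. With dim arrays set to that floor it was -0.36 (adjusted p 0.246), with normexp background correction -0.23 (adjusted p 0.0897), and in the authors' deposited value table -0.26 (adjusted p 0.18).

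Nr4a1 encodes Nur77, the nuclear receptor most used to report antigen receptor signals, and its probe lies on chromosome 15 (mm9 101105071 to 101105130). On slide 1 it read 4.12, 3.92, 4.32 and 4.27 in deficient arrays 9, 10, 11 and 12, against 6.00, 5.33, 5.23 and 4.91 in wild-type arrays 2, 5, 6 and 8. On slide 2 it read 1.97, 2.43, 2.69 and 2.03 in deficient arrays 1 to 4, against 2.32, 2.56, 2.46 and 2.53 in wild-type arrays 1, 2, 3 and 5. Every deficient array of slide 1 lay below every wild-type array, and on slide 2 deficient array 3 was the highest of all 8. The means were 4.16 ± 0.18 in deficient and 5.37 ± 0.46 in wild-type cells on slide 1 (SD, n = 4 each). On slide 2 they were 2.28 ± 0.34 in deficient and 2.47 ± 0.10 in wild-type cells (SD, n = 4 each). Nr4a1 fell by 1.21 on slide 1 (SE 0.21, adjusted p 0.00133 in limma), which is 2.31-fold lower, and its slide 2 difference of -0.19 did not pass the test (95% interval -0.63 to 0.26, adjusted p 0.68). Over both slides it fell by 0.70 (SE 0.15, adjusted p 0.00521). The slide 1 difference minus the slide 2 difference was -1.02 (SE 0.29, adjusted p 0.0334 in limma). That call is close to the threshold, and it was lost when any of 6 single arrays was left out (deficient 9 or 10 of slide 1, deficient 2 or 3 or wild-type 1 or 3 of slide 2), with adjusted p up to 0.0679. It was kept in only 9 of 13 other settings, with adjusted p up to 0.1 in limma. Quantile normalization (adjusted p 0.085) and testing without a filter on dim probes (adjusted p 0.0693) were among those that lost it.

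Nr4a2 encodes Nurr1, a close relative of Nur77 best known from dopamine neurons, and its 2 probes moved together within slides. The brighter probe read -1.84, -2.09, -1.09 and -1.97 in deficient arrays 9, 10, 11 and 12 of slide 1, against 0.46, -0.11, -1.45 and -1.65 in wild-type arrays 2, 5, 6 and 8. On slide 2 it read -1.56, -1.82, -1.84 and -2.0 in deficient arrays 1 to 4, against -2.52, -2.74, -2.63 and -2.49 in wild-type arrays 1, 2, 3 and 5. On slide 1 only wild-type arrays 2 and 5 lay above all deficient arrays, while on slide 2 all 4 deficient arrays lay above all wild-type arrays. The difference was -1.06 on slide 1 (SE 0.38, adjusted p 0.0566 in limma) and 0.79 on slide 2 (SE 0.38, adjusted p 0.247), and neither passed the test. The slides differed by -1.85 (SE 0.53, adjusted p 0.0354), a call that was lost in 10 of the 16 fits without 1 array (adjusted p up to 0.0659) and held without deficient array 11 or wild-type array 2, 6 or 8 of slide 1, deficient array 4 or wild-type array 5 of slide 2. That call was also kept in only 9 of 13 other settings, with adjusted p up to 0.108 in limma. The mean of opposite values over both slides was -0.14 (95% interval -0.71 to 0.44, adjusted p 0.783). The test on slide 2 depended on how the spread was shared: fitted on slide 2 alone, where the arrays of a group lay close together, the higher value in deficient cells passed (adjusted p 0.00314 in limma). On slide 1 the value passed with normexp background correction (adjusted p 0.0421) and was -0.68 without wild-type array 2.

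The second Nr4a2 probe lies at mm9 56959637 to 56959696 on chromosome 2, minus strand. It ranged from -4.58 to -3.44 in deficient and from -4.07 to -1.04 in wild-type arrays of slide 1, and from -3.36 to -3.05 in deficient and from -3.89 to -3.47 in wild-type arrays of slide 2. It was well above background on all arrays but deficient array 10 of slide 1. Its differences were -1.27 on slide 1 (adjusted p 0.0796 in limma), 0.44 on slide 2 (adjusted p 0.687) and -0.41 over both slides (adjusted p 0.473), so both probes were lower in value on slide 1 and higher in value on slide 2. Its slide 1 difference minus its slide 2 difference was -1.72 (adjusted p 0.119 in limma), which did not pass the test. The call between the slides came from the brighter probe alone. Nr4a3 encodes NOR-1, the third receptor of the family. Its probe ranged from -7.19 to -6.49 in deficient and from -6.63 to -6.27 in wild-type arrays of slide 1, and from -6.91 to -6.78 in deficient and from -7.47 to -6.76 in wild-type arrays of slide 2. Each array gave that probe 10 spots, and it was not well above background in any group, so no fold is given.

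**Figure D2:**
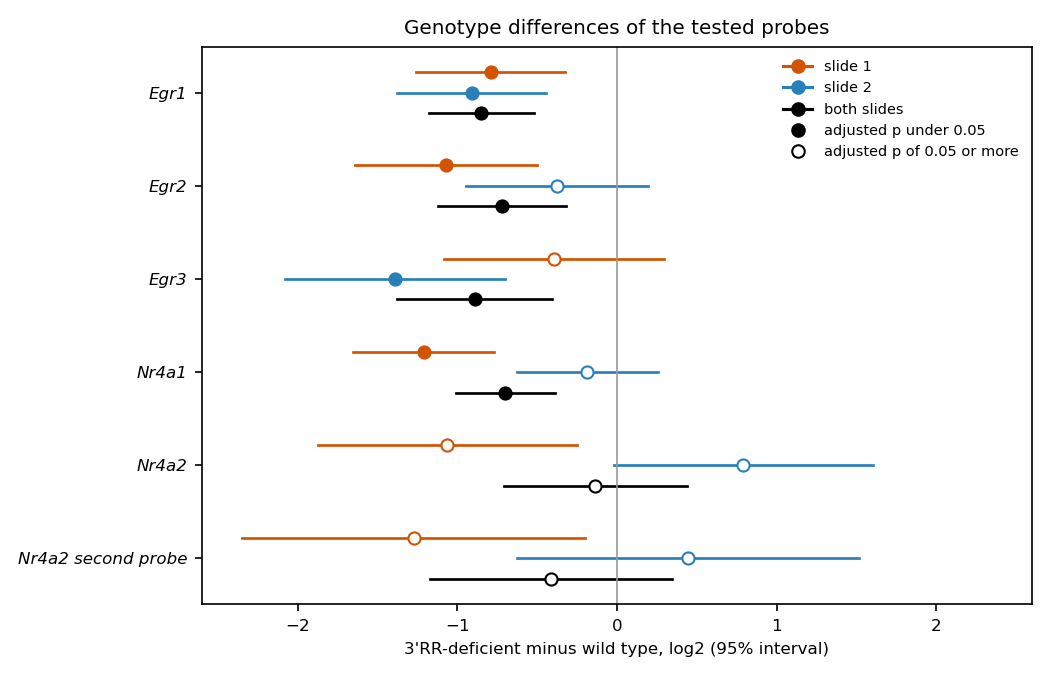
Difference of 3'RR-deficient minus wild-type cells on the log2 scale (x axis, with 95% interval) for the 6 tested probes on slide 1, slide 2 and over both, with filled points where the adjusted p was under 0.05. Egr1 lies near -0.8 to -0.9 throughout, while both Nr4a2 probes lie left of 0 on slide 1 and right of 0 on slide 2.

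Within slide 1, Egr1, Egr2 and Nr4a1 were called lower, 3 of 5 genes beside 14.1% of all probes. Within slide 2, Egr1 and Egr3 were called lower, 2 of 5 genes beside 3.81% of all probes. The Egr3 call there rests on signals near background, with no deficient array well above it. It was lost with dim arrays at their floor, with normexp background correction and in the authors' deposited value table. The difference between the slides was called for Nr4a1 and Nr4a2, both with the lower value on slide 1, 2 of 5 genes beside 8.71% of all probes called in that direction, 5.12% in the other and 13.8% in either. For Nr4a2 only the brighter probe was called. The split of all calls depended on the processing. On slide 1, 4085 probes were higher and 4230 lower in the authors' deposited value table, against 3012 and 4644 as reported. On slide 2, 1628 were higher and 862 lower with median scaling, against 1203 and 1254. For the difference between slides, 1504 were positive and 1312 negative after quantile normalization, against 1683 and 2865.

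Egr1, Egr2 and Nr4a1 varied together from array to array, while Egr3 and Nr4a3 were too dim to be included. After the mean of each slide was subtracted, Pearson's r over the 16 arrays was 0.83 for Egr1 with Egr2, 0.72 for Egr1 with Nr4a1 and 0.85 for Egr2 with Nr4a1. After the mean of each group of 4 arrays was subtracted, the values were 0.77, 0.61 and 0.62, so the arrays of a group also differed together. Nr4a2 had an r of 0.24 with Egr1 and 0.66 with Nr4a1 by slide, and its 2 probes had an r of 0.94 with each other. These are descriptions over arrays that share slides and groups. Wild-type arrays 2 and 5 of slide 1 held the highest values of Egr1, Egr2, Nr4a1 and Nr4a2 on that slide.

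**Figure D3:**
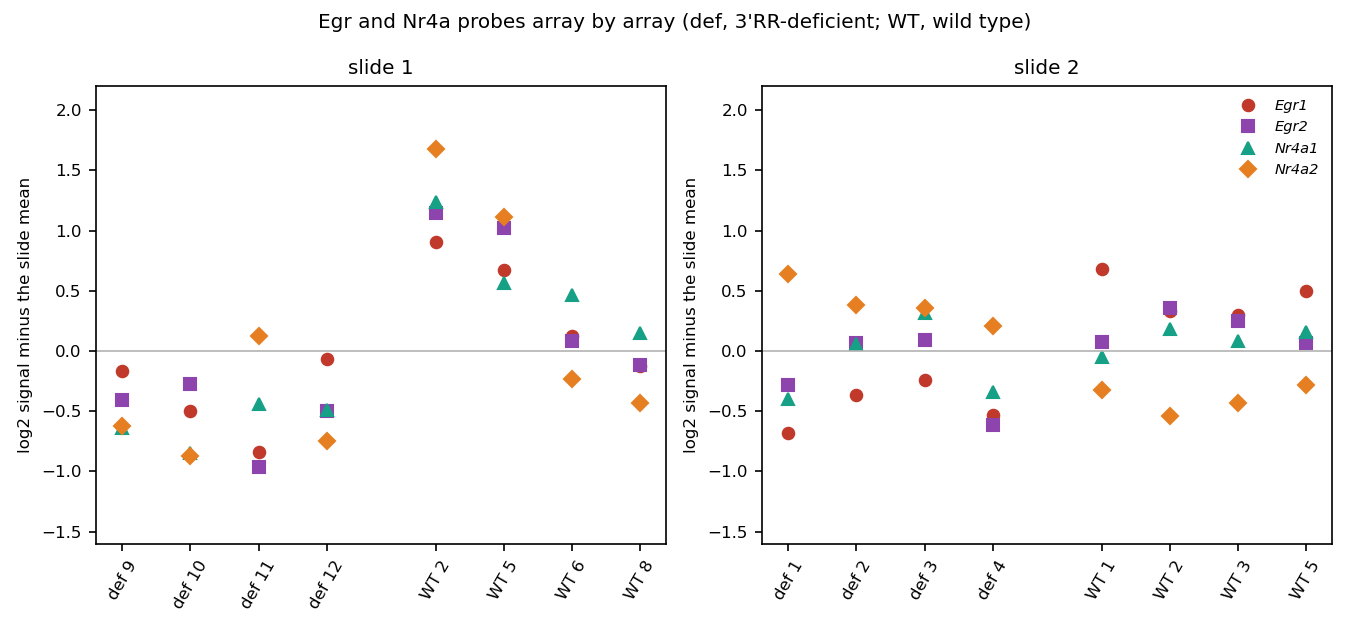
Log2 signal minus the mean of its slide (y axis) for Egr1, Egr2, Nr4a1 and Nr4a2 on each array (x axis). On slide 1 wild-type arrays 2 and 5 stand above the other arrays for all 4 genes, and on slide 2 Nr4a2 runs opposite to Egr1.

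The Y-linked gene Ddx3y was well above background on deficient arrays 11 and 12 and wild-type arrays 6 and 8 of slide 1, and on deficient arrays 2 and 3 and all 4 wild-type arrays of slide 2. The high wild-type arrays 2 and 5 of slide 1 were those without it, while on slide 2 the deficient arrays without it, 1 and 4, had the lowest values of Egr1, Egr2 and Nr4a1. A fit with a Ddx3y term within each slide, added after seeing the data, gave falls over both slides of 0.77 for Egr1 (adjusted p 0.00401 in limma), 0.59 for Egr2 (adjusted p 0.00734), 0.91 for Egr3 (adjusted p 0.0365) and 0.56 for Nr4a1 (adjusted p 0.0237). In that fit Egr1 on slide 2 was -0.76 and no longer called (adjusted p 0.0743), Egr3 on slide 2 was -1.43 and no longer called (adjusted p 0.0599), and Nr4a1 on slide 2 was 0.09 (adjusted p 0.889). The Ddx3y term itself was called for Egr2 on slide 1, at -0.74 for arrays with Ddx3y over those without (adjusted p 0.0322), beside 2.19% of all probes.

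The slides themselves differed for most genes, with 74.6% of all probes called between slides in deficient cells and 72.8% in wild-type cells. Of the 5 tested members, 3 were higher and 1 lower on slide 1 in each genotype, beside 25.6% of all probes higher and 49% lower in deficient cells and 25.2% higher and 47.6% lower in wild-type cells. No label gives the reason, and the slide cannot be told apart from the mice, their handling or the scan. The median of all probes was -0.39 in deficient and -0.35 in wild-type cells for slide 1 minus slide 2, and -0.10 in deficient and 0.03 in wild-type cells with median scaling, so the differences below stand against that shift. With median scaling, 10918 probes were higher and 12416 lower on slide 1 in deficient cells, and 12004 higher and 10818 lower in wild-type cells. The slide directions of Egr1, Egr2 and Nr4a1 were the same under every scaling tried. Nr4a1 was higher on slide 1 than on slide 2 by 1.88 in deficient (SE 0.21, adjusted p 1.23e-06 in limma) and by 2.90 in wild-type cells (SE 0.21, adjusted p 1.41e-08), which is 3.67-fold and 7.47-fold. Egr1 was higher on slide 1 by 1.23 in deficient (adjusted p 0.000141) and by 1.11 in wild-type cells (adjusted p 0.000359). Egr2 ran the other way and fell by 2.41 in deficient (adjusted p 1.32e-06) and by 1.71 in wild-type cells (adjusted p 4.38e-05). Thus 2 genes with the same direction between genotypes, Egr1 and Egr2, had opposite directions between slides in both genotypes. On its brighter probe, Nr4a2 was 0.05 apart in deficient (adjusted p 0.902) and higher on slide 1 by 1.91 in wild-type cells (adjusted p 0.00039). On its second probe it was -0.84 in deficient (adjusted p 0.141 in limma) and 0.88 in wild-type cells (adjusted p 0.127), and neither passed the test. In deficient cells Egr3 had a bound of 1.56-fold higher on slide 1, which is not a firm minimum, as only 2 of those 4 arrays were well above background. The difference was 0.34 with normexp (adjusted p 0.0231 in limma) and 0.57 with dim arrays at their floor (adjusted p 0.0855), both smaller than that bound. The Egr3 difference of 0.68 in wild-type cells did not pass the test (adjusted p 0.0685 in limma). With median scaling it was 1.06 and passed (adjusted p 0.0092).

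**Figure D4:**
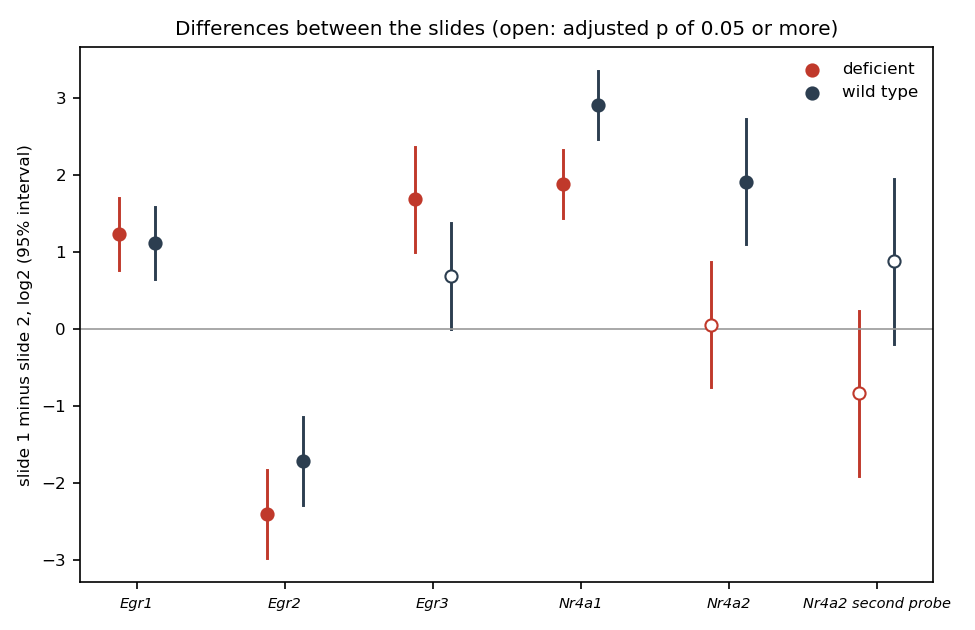
Slide 1 minus slide 2 on the log2 scale (y axis, with 95% interval) in deficient and wild-type cells for the 6 tested probes (x axis), with filled points where the adjusted p was under 0.05. Egr1 and Nr4a1 lie above 0 and Egr2 below 0 in both genotypes.

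Markers of B cells and of other cells moved with the slides. Of 10 B cell markers, 8 were higher and 1 lower on slide 1 in deficient cells (median 1.02). In wild-type cells 8 were higher and 0 lower (median 1.05). Of all genes, 25.5% were higher and 50.3% lower in deficient cells, and 25.1% higher and 48.4% lower in wild-type cells. The summed linear level of 9 macrophage markers, relative to the 75th percentile, ran from 110 to 160 in deficient and from 87 to 187 in wild-type arrays of slide 1, and from 23.2 to 26.7 in deficient and from 18.2 to 20.4 in wild-type arrays of slide 2. Most of the slide 2 sum came from Mpeg1, which averaged 4.17 in deficient and 3.63 in wild-type cells there (adjusted p 0.0362 in limma). C1qa, C1qc and Vcam1 averaged between -7.45 and -6.46 on slide 2. The median log2 difference of the 9 markers, slide 1 minus slide 2, was 5.3 in deficient and 5.5 in wild-type cells. For 7 neutrophil markers the summed level ran from 8.61 to 145 in deficient and from 3.18 to 34.7 in wild-type arrays of slide 1, and from 2.74 to 3.49 in deficient and from 1.94 to 2.37 in wild-type arrays of slide 2. Most of the slide 2 sum came from Ly6g, which averaged 1.57 in deficient and 1.05 in wild-type cells there. S100a8 and S100a9 averaged between -7.58 and -6.85 on slide 2. For 5 erythroid markers the summed level ran from 61.3 to 216 in deficient and from 54.8 to 343 in wild-type arrays of slide 1, and from 1.95 to 9.90 in deficient and from 0.182 to 0.229 in wild-type arrays of slide 2. Erythroid markers therefore also differed between the genotypes on slide 2, where the alpha globin gene Hba-a1 was higher in deficient cells by 4.93. For 7 T cell markers the sum ran from 35.9 to 42.9 in deficient and from 35.4 to 41.0 in wild-type arrays of slide 1, and from 70.6 to 115 in deficient and from 67.5 to 103 in wild-type arrays of slide 2. The larger sum on slide 2 came with 1 gene, Thy1, which averaged 1.24 in deficient and 1.29 in wild-type cells on slide 1, and 5.91 in deficient and 5.99 in wild-type cells on slide 2. Of the other T cell markers, 5 were higher on slide 1 in each genotype, among them Cd3d and Cd3g. Over both slides, 2 of the 7 T cell markers passed the test as higher in deficient cells, the kinase gene Lck (0.32) and Cd3g, which was well above background on 8 of 16 arrays and differed by 0.37 on slide 1 (adjusted p 0.434 in limma). Also higher were 2 of 4 tested erythroid, 1 of 6 tested neutrophil (Ly6g) and 1 of 10 B cell markers. Beside these counts, 7.45% of all genes were called higher over both slides, and 1 of 10 is near that share. That B cell marker was the receptor gene Cd22 (1.07), and no marker of macrophages, NK cells, plasmacytoid dendritic cells or platelets passed the test. For 5 NK cell markers it ran from 4.78 to 19.0 in deficient and from 10 to 15.5 in wild-type arrays of slide 1, and from 0.996 to 1.22 in deficient and from 1.07 to 1.48 in wild-type arrays of slide 2. Sums of 5 plasmacytoid dendritic cell markers lay between 180 and 276 in all groups, with most of the sum from Siglech. Of these 5 markers, 3 were higher on slide 1 in deficient cells, and 4 were higher and 1 lower in wild-type cells (medians 2.40 and 3.18). The sums of 5 platelet markers lay between 0.122 and 0.688. The part of these cells in the Egr and Nr4a values was not tested, and in bulk RNA fewer cells that express a gene and less RNA per cell cannot be told apart.

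Most other immediate early genes were lower in 3'RR-deficient cells over both slides, and few of them were called on slide 2. Of 44 listed genes, all tested, 26 were lower and 1, Arc, was higher in deficient cells over both slides, beside 9.59% of all genes lower and 7.45% higher, and the list's median was -0.42 against -0.03 over all genes. On slide 1, 27 were lower and none higher (median -0.63), beside 15.0% of all genes lower. On slide 2, 6 were lower and none higher (median -0.17), beside 4.02% lower. Of the 26 genes lower over both slides, 22 were lower in value on each slide, 23 were called lower on slide 1 and 6 on slide 2. The number called lower over both slides was 20 to 28 when 1 array was left out, beside 6.95% to 9.08% of all probes. It was 13 with the slide as a random block, beside 5.02%, and 16 with it as an additive block, beside 6.04%. As reported, 9.2% of all probes were called lower. The difference between the slides was called for 13 of the 44 genes, of which 12 had the lower value on slide 1, beside 9.52% of all genes with the lower value there and 5.08% with the higher. The count with the lower value was 7 without deficient array 3 of slide 2, 5 with no filter on dim probes and 4 after quantile normalization. Of all probes, 6.15%, 2.3% and 3.99% had the lower value in those fits, against 8.71% as reported. Fitted alone, slide 1 gave 13 genes called lower beside 4.71% of all probes, and slide 2 gave 11 beside 6.07%. On slide 2 the count was 14 with array weights, beside 10.9% of all probes.

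The 4 immediate early genes with the largest called differences were Plk2, Atf3, Rgs1 and Fos. Plk2, a polo-like kinase, averaged -3.54 ± 0.56 in deficient and -1.69 ± 0.35 in wild-type cells on slide 1, and -2.66 ± 0.46 in deficient and -1.33 ± 0.32 in wild-type cells on slide 2 (SD, n = 4 each), a fall of 1.59 over both slides (adjusted p 0.000129 in limma). Rgs1, which dampens chemokine receptor signals, fell by 1.22 over both slides, by 1.83 on slide 1, and was -0.61 on slide 2 (adjusted p 0.0669 in limma). Fos, the AP-1 subunit, averaged 3.16 ± 0.35 in deficient and 4.46 ± 0.97 in wild-type cells on slide 1, and -2.75 ± 0.47 in deficient and -1.64 ± 0.51 in wild-type cells on slide 2 (SD, n = 4 each). Fos fell by 1.2 over both slides (adjusted p 0.0123 in limma) and was higher on slide 1 than on slide 2 by 5.90 in deficient and by 6.10 in wild-type cells. Atf3, a stress-induced repressor of the ATF family, fell by 1.29 over both slides (adjusted p 0.0293 in limma), with -2.16 on slide 1 and -0.42 on slide 2, and like Egr2 it was lower on slide 1 than on slide 2, at -3.33 in deficient and -1.59 in wild-type cells. Between the slides, 24 of the 44 genes were higher and 15 lower on slide 1 in deficient cells, and 26 higher and 11 lower in wild-type cells. Of all genes, 25.5% were higher and 50.3% lower in deficient cells, and 25.1% higher and 48.4% lower in wild-type cells.

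**Figure D5:**
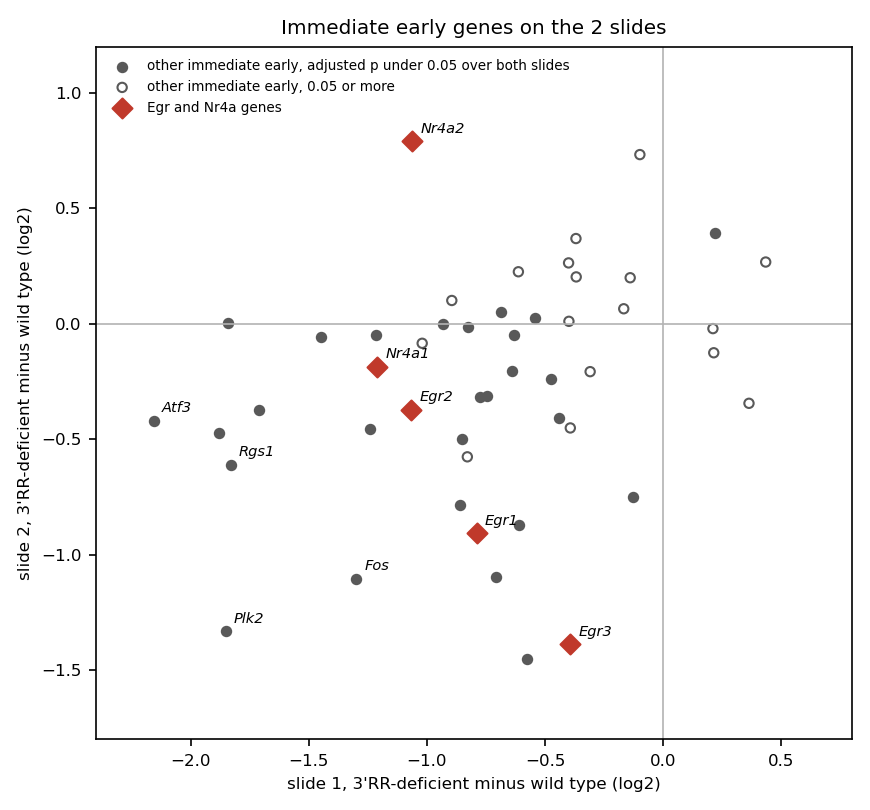
Deficient minus wild type on slide 1 (x axis) and slide 2 (y axis), log2, for the 44 other immediate early genes (circles, filled where the adjusted p over both slides was under 0.05) and the 5 tested Egr and Nr4a genes (diamonds). Most points lie left of 0, Egr1, Egr2, Egr3 and Nr4a1 lie below 0 on both axes, and Nr4a2 lies above 0 on slide 2.

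Among relatives and corepressors of the Egr factors, Egr4, the fourth zinc finger of the family, was called lower, while Nab1 and Nab2, the corepressors that bind Egr proteins, did not pass the test. Egr4 fell by 1.11 over both slides (SE 0.21, adjusted p 0.00274 in limma). Its probe was well above background on 7 of 16 arrays, but on slide 1 in no deficient array and in 1 wild-type array, so no fold is given there. On slide 2 the difference was -1.39 (adjusted p 0.0103 in limma), with only 2 deficient arrays well above background. The Egr4 differences on slide 2 and over both slides therefore rest in part on dim signals, and neither is a firm size. Nab1 differed by 0.16 (adjusted p 0.141 in limma) and Nab2 by -0.02 (adjusted p 0.952). Of the 3 retinoid X receptors, the nuclear receptors that pair with Nr4a1 and Nr4a2, none passed over both slides, with -0.11 for Rxra (adjusted p 0.816) and -0.11 for Rxrb (adjusted p 0.289).

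Signalling genes upstream of the Egr and Nr4a genes were called in both directions, beside 7.45% of all genes higher and 9.59% lower over both slides. Of 21 genes of the ERK and serum response factor input, 1 was higher and 2 were lower over both slides, with a median of -0.03. Rasgrp3, a Ras activator of B cells, fell by 0.56 over both slides (adjusted p 4e-04 in limma), and by slide it was -0.05 on slide 1 and -1.06 on slide 2, the opposite order to Nr4a1. Nras, a Ras protein, fell by 0.25 (adjusted p 0.00861 in limma), and Braf, a kinase upstream of ERK, rose by 0.27 (adjusted p 0.0211). Of 17 tested genes of the calcium and CREB input, 2 were higher and 3 were lower, with a median of -0.04. Nfatc2, a calcineurin-dependent factor, rose by 0.53 (adjusted p 0.0103 in limma) and Cabin1, a calcineurin inhibitor, by 0.24 (adjusted p 0.0094). Ppp3r1, the regulatory subunit of calcineurin, fell by 0.30 (adjusted p 0.0046 in limma) and Mef2a, a MEF2 factor, by 0.34 (adjusted p 0.0104).

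Genes that earlier work in lymphocytes ties to these factors were called in both directions. Of 7 genes tied to Egr2 and Egr3, 3 were higher over both slides and none lower, with a median of 0.06, beside 7.45% of all genes higher and 9.59% lower. Cdkn1a was called in opposite directions, 1.29 on slide 1 (adjusted p 0.00322 in limma) and -1.18 on slide 2 (adjusted p 0.0115). Its value of 0.06 over both slides is a mean of those. Socs1, an inhibitor of cytokine signalling, averaged 2.13 ± 0.49 in deficient and 0.44 ± 0.29 in wild-type cells on slide 1, and 3.76 ± 0.17 in deficient and 3.98 ± 0.22 in wild-type cells on slide 2 (SD, n = 4 each). It rose by 0.74 over both slides (adjusted p 0.00467 in limma), and its relative Socs3 rose by 0.62 (adjusted p 0.0486). Cblb, a ubiquitin ligase of anergic lymphocytes, rose by 0.58 (adjusted p 0.00023 in limma), with 0.23 on slide 1 and 0.93 on slide 2. Of 6 genes tied to Nr4a in stimulated B cells, Irf4, a factor of activated B cells and plasma cells, fell by 0.47 over both slides (adjusted p 0.0101 in limma). None of the other 5 passed the test over both slides. On slide 1, 3 of the 6 were called lower, beside 15.0% of all genes, and on slide 2 none was called. Those lower on slide 1 were Irf4 (-0.60), Ccl3 (-1.31, adjusted p 0.00606 in limma) and Ccl4 (-0.87, adjusted p 0.0388). Heat shock genes respond to handling of cells as well, and of 10 tested, 3 were lower over both slides, 7 on slide 1 and 0 on slide 2 (median -0.24, -0.50 and 0.12), beside 9.59%, 15.0% and 4.02% of all genes lower in those comparisons. Over both slides, Dnajb1 fell by 0.28, Hsp90aa1 by 0.27 and Dnaja1 by 0.22.

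The genes most like each member were sought among 16633 other genes well above background on all 16 arrays, by Pearson's r over the 16 arrays after the mean of each slide was subtracted. For Egr1 the closest was Maff, a small Maf factor and itself an immediate early gene, at 0.94 (0.87 with group means subtracted). Chchd5, Rc3h1 and Ufl1 followed at 0.92, 0.91 and 0.90, beside a probe with no gene symbol. For Egr2, Tnfaip3, which encodes the NF-kappaB inhibitor A20, and Vps37a both had 0.92, as did Chm and Fbxo33, beside another probe with no symbol at 0.95. For Nr4a1, Mbnl1 had 0.96, Atf3 and Pnrc1 each 0.96, Tm2d1 0.95 and Ifrd1 0.95. For the brighter Nr4a2 probe, 9430085M18Rik, Nisch and Papd5 had 0.91 to 0.92, Phf21a 0.91 and Snhg12 0.90. Tnfaip3, like Egr2, fell on slide 1 (-0.93). On slide 2 it was 0.00, where Egr2 was -0.37 and did not pass the test. Nisch, like Nr4a2, had a lower value on slide 1 (-0.23) and a higher one on slide 2 (0.21). Maff was lower in value on both slides (-0.61 and -0.87), as Egr1 was. The values compared still hold the genotype difference of each slide, so such likeness follows in part from how these genes were chosen.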

How the data were processed

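Splenic B cell RNA was measured on 16 single-colour Agilent arrays. The deposited spot intensity comes from the scanner software (Feature Extraction 10.7.3.1). The settings in the files, per the file headers, include background subtraction, detrending and surrogates for dim spots, and no scaling between arrays. The authors' deposited log2 table was used as an alternative within slides. Its column medians were 5.58 to 5.60 on slide 1 and 6.49 to 6.50 on slide 2, and how it was scaled is not stated in the labels.

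Control spots (3671 of 62976) and outlier spots were left out, and spots of 1 probe were averaged as log2 processed intensity minus the array's 75th percentile. A probe counted as well above background on an array where at least 0.5 of its spots were, and was kept on at least 4 of 16 arrays. Every difference came from 4 group means fitted together in limma 3.58.1 under R 4.3.3, with two-sided tests. The precision is limited by 4 arrays per group. The brightest probe stood for a gene in lists. On simulated data, 78% of changes of 1 and 39% of changes of 0.5 (log2, both slides, 32881 probes) were recovered. Annotation of the slides differed in name for 2102 probes and 0 of the probes reported, and later names were used.

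The members, the gene lists and the rule for named genes (up to 4 called genes per list with the largest difference over both slides, up to 2 if none was called, and 5 genes most like each member) were chosen with earlier results of these data known. Alternatives covered scaling, background, filter, floor, probe choice, slide and replicate blocks, array weights, prior, the deposited table, a Ddx3y term and leaving out each array. Sequences came from the array files and from RefSeq. Same-numbered arrays of slide 2 deviated together at r of 0.01, 0.08 and 0.06, so the numbers were not taken as pairs.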

Additional observations from a re-analysis of the deposited data

Results flagged for a closer look

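The differences between genotypes themselves differed between the slides for 19 of the members and genes named by rule (slide 1 minus slide 2, limma adjusted p under 0.05). Of all probes, 13.8% were called in this comparison. The genes were named for large differences or for likeness to a member, so their count cannot be read against that share. Among the members this held for Nr4a1 (-1.02) and for the brighter probe of Nr4a2 (-1.85), but not for its second probe (-1.72, adjusted p 0.119). Of the other immediate early genes named it held for Rgs1 (-1.22) and Tnfaip3 (-0.93), and of the retinoid X receptors for Rxrb (-0.48). Of the genes most like Nr4a1 it held for Mbnl1 (-0.42), Tm2d1 (-0.47) and Ifrd1 (-0.66). It held for Rasgrp3 (1.00) and Ppp3r1 (-0.47) among the signalling genes, and for Socs1 (1.91) and Cblb (-0.70) among genes tied to Egr2 and Egr3. Outside the rule it also held for Cdkn1a (2.47), Ccl3 (-2.04) and Ccl4 (-1.37). The heat shock genes Dnajb1 (-0.71), Hsp90aa1 (-0.79) and Dnaja1 (-0.72) had the lower value on slide 1. Among markers of other cells it held for Lck (-0.56), Ly6g (0.97), Hbb-b1 (-6.86, on a probe well above background on 12 of 16 arrays) and Hba-a1 (-5.40). The Hbb-b1 value is not exact. Its wild-type mean on slide 2 was -6.41, below the dimmest probe still well above background on each of those arrays.

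One array stood apart from its group. Egr3 read -4.89 on wild-type array 5 of slide 2, against -4.53 to -4.46 on the other wild-type arrays of that slide, and the array was the only one of its group on which Egr3 was not well above background. Of 28 groups of 4 arrays examined, this was the only one. Chance gives about 1 in every 20 groups examined, so 1 among 28 is near what chance gives.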

How the results depend on the processing

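Egr1 and Nr4a1 over both slides kept their direction and their call in all 15 other settings and in all 16 fits without 1 array, with adjusted p up to 0.0282 for Egr1 and up to 0.0499 for Nr4a1 in those settings. Egr2 over both slides lost its call with the replicate block alone (-0.67, adjusted p 0.0847), and Egr3 over both slides lost it in 3 settings. None of the values that changed sign was past the threshold. These were the Egr3 slide difference with normexp (-0.12), dim arrays at their floor (-0.10) and the deposited table (-0.19), Nr4a2 in deficient cells between slides with the mean over probes (-0.39), Nr4a2 over both slides with array weights (0.044), and, with the Ddx3y term, Nr4a1 on slide 2 (0.092) and the Egr1 slide difference (-0.033). Leaving out 1 array gave -0.054 to 0.29 for the Egr1 slide difference, -0.16 to 0.17 for Nr4a2 in deficient cells between slides and -0.30 to 0.056 for Nr4a2 over both slides.

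Probes called over both slides numbered 5516, with 3077 for the slide as a random block and 3200 with the replicate block. On slide 1 there were 7656, with 2814 fitted alone. On slide 2 there were 2457, with 3842 fitted alone, 1078 with the replicate block and 8218 with array weights. For the difference between slides there were 4548, with 2816 after quantile normalization, 2304 with no filter, 1766 with the replicate block and 7414 with array weights. With the replicate block, 14 of the 44 other immediate early genes were called lower over both slides (beside 5.27% of all probes). It gave 2 on slide 2 (beside 1.91%) and 3 for the difference between slides (beside 3.2%). The cause of these changes was not tested. Leaving out 1 array gave 4209 to 5590 over both slides, 6027 to 8295 on slide 1, 1439 to 2717 on slide 2, 2914 to 4725 for the difference between slides (both lowest without wild-type array 1 of slide 2), 23606 to 24777 between slides in deficient and 22992 to 24064 in wild-type cells. Genotype and strain, and slide and mice, cannot be told apart, and signals near background limit Egr3, Egr4 and Nr4a3.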
